A study of Mus musculus with 2 samples.

Results

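The nuclear genome encodes the proteins of the mitochondrial ribosome, and the genes studied here are those whose symbol is Mrpl or Mrps followed by a number and, for some, a letter. Of the 32285 genes in the feature list, 78 carried such a symbol, 49 Mrpl and 29 Mrps, and they are called MRP genes below. The symbol alone decided membership, although the family itself was picked with earlier results of these data known. All 78 passed the minimum of 200 UMIs (unique molecular identifiers, 1 per captured RNA molecule) summed over the libraries, and the gene with the fewest had 1826. Every MRP gene is therefore in each count over all cells.

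The cells were myeloid-derived suppressor cells (MDSC), immature myeloid cells that restrain T cells, grown from bone marrow of female C57BL/6 mice of 10 weeks. Both cultures received IL-6 and GM-CSF at 50 ng/mL apiece over 4 days, together with either dabrafenib (DAB) at 1.5 µM or DMSO. Dabrafenib is a BRAF kinase inhibitor that also activates GCN2, a kinase of the integrated stress response. A single 5′ RNA library of single cells was made for each culture. No animal count was given, nor any replicate, so the differences below compare these libraries and have no replicate error. All intervals are 95% intervals that cover counting error only.

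The mitochondrial ribosome is built in the mitochondrial matrix from ribosomal RNAs of the mitochondrial genome and from imported proteins. It translates only the mRNAs of the mitochondrial genome, which encode core subunits of the respiratory chain and the ATP synthase. Many of its proteins hold a place that a bacterial ribosomal protein also holds, and others hold places found only in mitochondrial ribosomes. Mrpl proteins sit in the large subunit, where peptide bonds form, and most Mrps proteins in the small subunit, where the mRNA is read. Mrps18a and Mrps30 keep small-subunit names but belong to the large subunit, and Mrps36 is now assigned to the 2-oxoglutarate dehydrogenase complex.

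After filters, 9032 DMSO cells held 92292098 UMIs and 10476 DAB cells held 140112844, with medians of 7519.5 and 9440.5 UMIs per cell. The DAB library was thus the deeper of the pair, which bears on the results by depth given later. The barcode lists shared 152 barcodes, of which 118 remained in both libraries after filters. The myeloid label was matched by the integrin gene Itgam, the CD11b chain, at 419 CPM (UMIs of the gene scaled to a fixed total per library) in DMSO and 539.8 CPM in DAB, and by the calprotectin gene S100a8 at 18228 and 17745 CPM.

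Some promoter features, which the choice by symbol did not use, were more frequent among the MRP genes than over all promoters. RefSeq promoter windows on GRCm38.p6 reach from 250 bases before to 50 bases after the annotated start, and 69 of the 78 genes had one. In 49 of the 69 the RefSeq start lay within 100 bases of the start in GENCODE vM21, used for gene positions here. The largest distance was 17016 bases, for Mrpl33. The ETS letters CCGGAAG, read on either strand, occurred in 25 of the 69 windows, or 36.2%, against 9.12% of all 27025 promoters. The YY1 letters AAGATGG were in 18.8% of the MRP windows and in 6.48% of all. The letters GCATGCG, a part of the NRF1 site, were in 11.6% and 3.64%. At least 1 of these 3 motifs was found in 37 of the 69 windows. The share of all promoters with at least 1 of them was not computed, so this count has no background. The E-box CACGTG was about as frequent as elsewhere, at 7.25% and 7.24%. The C/EBP-ATF response letters TGATGNAA were in 0 of the 69 windows and in 4.06% of all promoters, which says only that these letters are not in these windows. The MRP windows had a median of 58.3% G and C and 21 CpG pairs, against 52.7% and 7 over all promoters. The part of base composition in the motif shares was not tested. The 27025 promoters were not limited to genes with UMIs here, whereas all MRP genes had them. Shares among expressed genes only were not computed, so these values do not show a trait particular to MRP genes.

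The windows printed next show the range among genes described below, each 5′ to 3′ on the strand of its gene with the motif matches in capitals. Mrps18b at chr17:35916391-35916690 (minus strand) and Mrps12 at chr7:28741772-28742071 (minus strand) are 2 of the genes with the largest ratios toward DAB. Mrpl52 at chr14:54426659-54426958 (plus strand) had the most UMIs, Mrps6 at chr16:92058086-92058385 (plus strand) the largest ratio and Mrpl45 at chr11:97315466-97315765 (plus strand) the lowest.
Mrps18b: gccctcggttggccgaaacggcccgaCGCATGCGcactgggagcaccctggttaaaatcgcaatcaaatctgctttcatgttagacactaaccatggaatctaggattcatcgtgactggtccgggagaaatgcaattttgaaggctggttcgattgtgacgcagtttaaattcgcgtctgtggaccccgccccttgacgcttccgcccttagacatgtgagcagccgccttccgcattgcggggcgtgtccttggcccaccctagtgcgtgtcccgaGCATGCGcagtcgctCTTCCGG
Mrps12: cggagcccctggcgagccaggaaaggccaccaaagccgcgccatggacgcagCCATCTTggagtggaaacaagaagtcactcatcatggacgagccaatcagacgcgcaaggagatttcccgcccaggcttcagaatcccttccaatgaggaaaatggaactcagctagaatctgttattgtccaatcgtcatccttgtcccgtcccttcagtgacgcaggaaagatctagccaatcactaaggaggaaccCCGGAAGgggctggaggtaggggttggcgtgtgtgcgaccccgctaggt
Mrpl52: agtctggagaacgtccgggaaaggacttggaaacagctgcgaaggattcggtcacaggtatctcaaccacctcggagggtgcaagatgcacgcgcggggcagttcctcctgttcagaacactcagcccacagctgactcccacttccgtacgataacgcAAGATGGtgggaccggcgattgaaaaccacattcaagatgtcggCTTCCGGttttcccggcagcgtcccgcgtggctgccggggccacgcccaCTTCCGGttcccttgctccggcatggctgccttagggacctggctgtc
Mrps6: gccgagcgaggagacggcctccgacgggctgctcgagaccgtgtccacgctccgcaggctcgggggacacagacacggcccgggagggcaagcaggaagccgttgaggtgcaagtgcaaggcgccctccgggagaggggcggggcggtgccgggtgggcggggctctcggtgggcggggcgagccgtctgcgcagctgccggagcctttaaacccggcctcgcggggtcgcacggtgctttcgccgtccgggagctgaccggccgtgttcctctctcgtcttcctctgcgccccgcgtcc
Mrpl45: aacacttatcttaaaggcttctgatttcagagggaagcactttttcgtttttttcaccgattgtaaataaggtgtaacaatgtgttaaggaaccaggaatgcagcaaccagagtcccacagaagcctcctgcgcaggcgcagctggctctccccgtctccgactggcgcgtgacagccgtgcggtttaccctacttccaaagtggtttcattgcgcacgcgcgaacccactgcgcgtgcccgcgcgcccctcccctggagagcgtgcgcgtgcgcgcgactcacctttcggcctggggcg
Overlapping matches of a motif were merged and counted as 1 stretch. Mrps18b held 1 ETS stretch and 2 NRF1 stretches, 1 of them matching on both strands, and Mrps12 held 1 ETS and 1 YY1 stretch. Mrpl52 held 2 ETS stretches and 1 YY1 stretch. The Mrps6 and Mrpl45 windows, at the opposite ends of the ratios, held no match to the letters of the 5 motifs. Only the letters given above were searched, so other forms of the same sites, those of NRF1 among them, were not counted. These windows were chosen after the values were seen, and no relation between motifs and ratios was tested.

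Another feature, found in a part of the MRP genes, was the position beside a gene that points the other way. In the GENCODE vM21 annotation of GRCm38, 19 of the 78 MRP genes (24.4%) started within 1000 bases of the start of a protein-coding gene on the other strand, head to head. Among 11231 protein-coding genes with at least 200 UMIs the share was 11.7%. The partners named here were chosen after their values were seen, and their ratios were not all like that of the MRP gene. Mrps18b went from 20.8 to 41.1 CPM, and Ppp1r10, a regulator of protein phosphatase 1 whose start lies 45 bases away, stood at 39.5 CPM in DMSO and 39.3 CPM in DAB. Mrpl57 had a log2 ratio of 0.48 and its partner Ska3, a kinetochore gene 49 bases away, one of -0.39. Mrps12 and the mitochondrial seryl-tRNA synthetase gene Sars2, 172 bases apart, had log2 ratios of 0.57 and 0.29.

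Over all cells, the MRP genes made up 47.7 (47.5 to 47.8) of every 10000 UMIs in DMSO and 52.8 (52.7 to 53.0) in DAB. The log2 ratio DAB over DMSO of the summed UMIs was 0.15. Gene by gene, the median log2 ratio was 0.22, while the median over the 12124 genes with at least 200 UMIs was -0.01. The ratio was above 0 for 60 MRP genes (76.9%), beside 49.4% of all genes, and below 0 for 18 MRP genes. The counting interval lay above 0 for 55 MRP genes, below 0 for 17, and included 0 for 6. This count was not made over all genes, so it has no background, and intervals are narrower for genes with more UMIs. The shift was small and wide in reach, with most genes between the extremes described next.

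A gene was counted as past the fold when its log2 ratio was at least 0.5 in size and its interval left out 0. In all cells 9 MRP genes were past the fold toward DAB, beside 13.4% of all genes, and 2 were past it toward DMSO, beside 14.7% of all genes. As shares of 78 these counts are not above the background. The genes just inside the threshold were Mrpl33 and Mrpl14, at 0.503 and -0.51, and those just outside were Mrpl58 and Mrpl1, at 0.497 and -0.34. Without the 42 MRP genes that overlap another annotated gene, 3 of 36 were past the fold. All 3 were toward DAB, and the share among all genes without an overlap was not computed. Averaging the share of UMIs over cells in place of summing UMIs gave 18 toward DAB, beside 17.8% of all genes averaged likewise, and 1 toward DMSO, beside 11.6%. At a log2 ratio of 0.25 in place of 0.5 there were 37 toward DAB, beside 26.9% of all genes, and 5 toward DMSO, beside 28.1%. At a log2 ratio of 1 there were 2, both toward DAB, with 3.73% of all genes past it toward DAB and 4.53% toward DMSO.

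**Figure D1:**
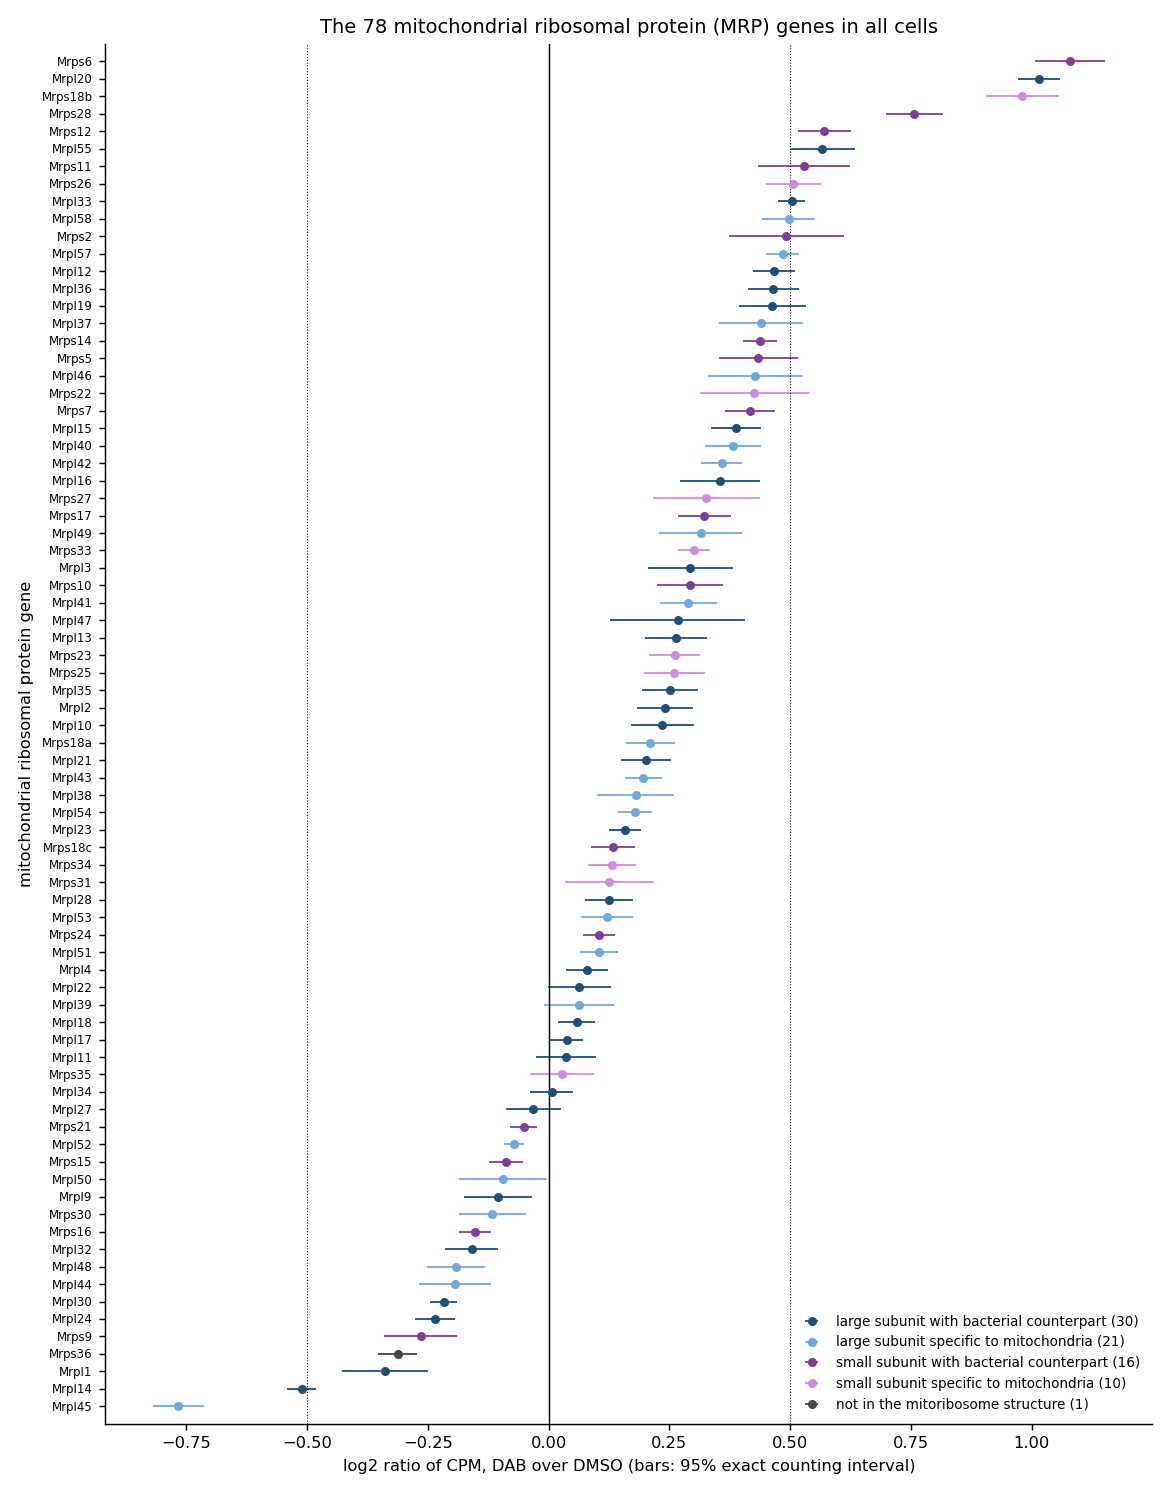
The log2 ratio of CPM, DAB over DMSO, of each of the 78 MRP genes (ordered by ratio) in all cells, with its 95% exact counting interval, coloured by the place of the protein in the ribosome. Mrps6 and Mrpl20 lie above 1, most genes lie between 0 and 0.5, and Mrpl45 and Mrpl14 lie below -0.5.

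Among the small-subunit MRP genes, the 10 whose proteins hold a place found only in mitochondrial ribosomes all had a ratio above 0. These 10 are complete by symbol only. Of 5 mitoribosome proteins with other symbols, given later, 4 were above 0 and Dap3 of the small subunit stood at -0.22. The summed UMIs of the 10 MRP genes went from 3.96 to 4.92 per 10000, a log2 ratio of 0.31 (0.30 to 0.33). Their median log2 ratio was 0.28. Mrps18b, 1 of 3 mammalian relatives of bacterial S18, of which Mrps18c holds the place of S18 itself, went from 20.8 to 41.1 CPM, a log2 ratio of 0.98 (0.91 to 1.06). Mrps26 went from 40.6 to 57.8 CPM, with a log2 ratio of 0.51. Mrps33, the most counted of these genes, went from 123 to 151 CPM, at 0.30, and Mrps35 had the lowest ratio of them, 0.03 (-0.04 to 0.09). The other Mrps18 genes differed less, with log2 ratios of 0.13 for Mrps18c (from 67.4 to 74.0 CPM) and 0.21 for the large-subunit Mrps18a (from 53.3 to 61.6 CPM).

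Of the 16 small-subunit genes with a bacterial counterpart, 12 had a ratio above 0. Their median log2 ratio was 0.37 and their summed UMIs had a ratio of 0.19. Mrps6, at chr16:92058270-92112227, had the highest log2 ratio of all MRP genes, 1.08, and went from 21.8 CPM (20.9 to 22.8) to 46.1 CPM (45.0 to 47.2). Its start lies 52 bases from that of Slc5a3, a myo-inositol transporter gene on the same strand, which went from 1.40 to 2.28 CPM. Reads from the shared start region cannot be told apart here, and their part in the Mrps6 value was not tested. Mrps28 went from 34.7 to 58.6 CPM (log2 ratio 0.76), Mrps12 from 42.9 to 63.7 CPM (0.57) and Mrps11 from 14.2 to 20.5 CPM (0.53). Mrps12 is the counterpart of S12, a protein of the decoding centre. On the other side of 0, Mrps9 went from 27.6 to 22.9 CPM, a log2 ratio of -0.26, and Mrps21 from 185 to 178 CPM, a log2 ratio of -0.05. Mrps24 stood at 128 CPM in DMSO and 137 CPM in DAB, a log2 ratio of 0.10.

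The large subunit held differences in both directions. Of the 30 genes with a bacterial counterpart, 23 had a ratio above 0, and the summed log2 ratio was 0.13. Mrpl20, at chr4:155802878-155809975, went from 62.9 CPM (61.3 to 64.6) to 127 CPM (125 to 129), a log2 ratio of 1.02. Unlike Mrps6, it overlaps no other annotated gene. Mrpl33 went from 159.8 to 226 CPM (log2 ratio 0.50) and Mrpl55 from 27.3 to 40.4 CPM (0.57). In the other direction, Mrpl14 at chr17:45686322-45698495 went from 182 CPM (179 to 184) to 127 CPM (126 to 129), a log2 ratio of -0.51. The gene Tmem63b overlaps it on the other strand and had a log2 ratio of -0.40, at 13.3 CPM in DMSO and 10.1 CPM in DAB. Mrpl30, Mrpl24 and Mrpl1, the last a protein of the stalk at the tRNA exit site, had log2 ratios of -0.22, -0.23 and -0.34.

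Of the 21 large-subunit genes whose proteins hold a mitochondrial place, 15 had a ratio above 0, and the summed log2 ratio was 0.12. Mrpl52 had the most UMIs of all MRP genes and went from 333 CPM (329 to 336) to 317 CPM (314 to 319.5), a log2 ratio of -0.07. Mrpl57 went from 107 to 150.1 CPM, a log2 ratio of 0.48. Mrpl45, at chr11:97315716-97329920, a protein that helps to anchor the ribosome at the inner membrane, had the lowest ratio of the MRP genes. It went from 66.5 CPM (64.8 to 68.1) to 39.1 CPM (38.0 to 40.1), a log2 ratio of -0.77. Mrpl44, an RNase III-like protein, went from 27.2 to 23.8 CPM, a log2 ratio of -0.19. Mrps36, which by present assignment is outside the ribosome, went from 95.8 to 77.1 CPM, a log2 ratio of -0.31.

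The comparison was also made within classes of cells, since the libraries held different mixtures. Clustering without the MRP genes gave 27 clusters, labelled by letters in order of size, and 14 of them were named from marker genes into 11 classes. The 13 unnamed clusters held 45.3% of DMSO cells and 52.6% of DAB cells. Class names end in "-like" because they rest on marker genes alone, and which cells a class holds, and so its values, depended on the clustering. The class called chemokine-high was named from its chemokine genes, with S100a8 or Csf3r above the other cells also required. This class gets no cell type. Its cluster G was led by Cxcl3, Cxcl2 and Mmp13 and its cluster K by Ccl3, Atp6v0d2 and Mpeg1, and the last 2 of these are known from macrophages and osteoclasts. PMN stands for polymorphonuclear cells, that is, granulocytes.

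The levels of the summed MRP genes in the 9 classes with 50 or more cells in both libraries spanned a wide range, the highest being 2.21 times the lowest in DMSO and 1.96 times in DAB. In DMSO they ran from 25.5 (25.2 to 25.8) per 10000 UMIs in intermediate granulocyte-like cells to 56.5 (55.4 to 57.6) in macrophage-like cells. Immature monocyte-like cells at 53.3, mature monocyte-like cells at 52.2 and mature PMN-like cells at 51.3 were in the upper range. Activated dendritic cell-like cells stood at 48.6 and chemokine-high cells at 47.1. Basophil or mast cell-like cells at 35.1 and B cell-like cells at 33.4 were nearer to the intermediate granulocyte-like cells. Neighbours whose intervals overlapped were mature monocyte-like and mature PMN-like cells, activated dendritic cell-like and chemokine-high cells, and basophil or mast cell-like and B cell-like cells. High levels were found both in shallow cells, with a median of 2711 UMIs for mature PMN-like cells in DMSO, and in deep ones, with 17573 for immature monocyte-like cells.

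The cytosolic ribosomal protein genes stood in another order. In DMSO they took 1611 of every 10000 UMIs in mature PMN-like cells, 2216 in immature monocyte-like cells and 3755 in B cell-like cells. There were thus 31.4 cytosolic ribosomal UMIs for each MRP UMI in mature PMN-like cells, 41.6 in immature monocyte-like cells and 112 in B cell-like cells.

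In DAB, 7 of the 9 classes had a higher MRP level than in DMSO. The level was 67.4 (66.5 to 68.3) per 10000 UMIs in mature PMN-like, 60.6 in mature monocyte-like, 51.0 in chemokine-high and 34.4 in intermediate granulocyte-like cells. Macrophage-like cells reached 59.2, B cell-like cells 42.4 and basophil or mast cell-like cells 42.4. Immature monocyte-like cells were lower in DAB, at 51.3 (50.8 to 51.8) against 53.3 (53.0 to 53.6) in DMSO. Activated dendritic cell-like cells stood at 48.6 (47.7 to 49.4) in DMSO and 48.3 (47.3 to 49.3) in DAB, which overlap. Over the other clusterings tried, the order of the libraries turned in 2 classes and kept its side in the other 7. Immature monocyte-like cells were higher in DAB at a Leiden resolution of 0.5 (54.4 in DMSO, 57.1 in DAB), with MRP genes allowed in the clustering (54.9 and 63.0) and with doublets kept (54.0 and 56.7). Macrophage-like cells were lower in DAB without alignment of the libraries, at 57.6 in DMSO and 56.3 in DAB. The DAB level of mature PMN-like cells ranged from 59.1 to 69.8 over these clusterings, and their DMSO level from 50.6 to 55.6.

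**Figure D2:**
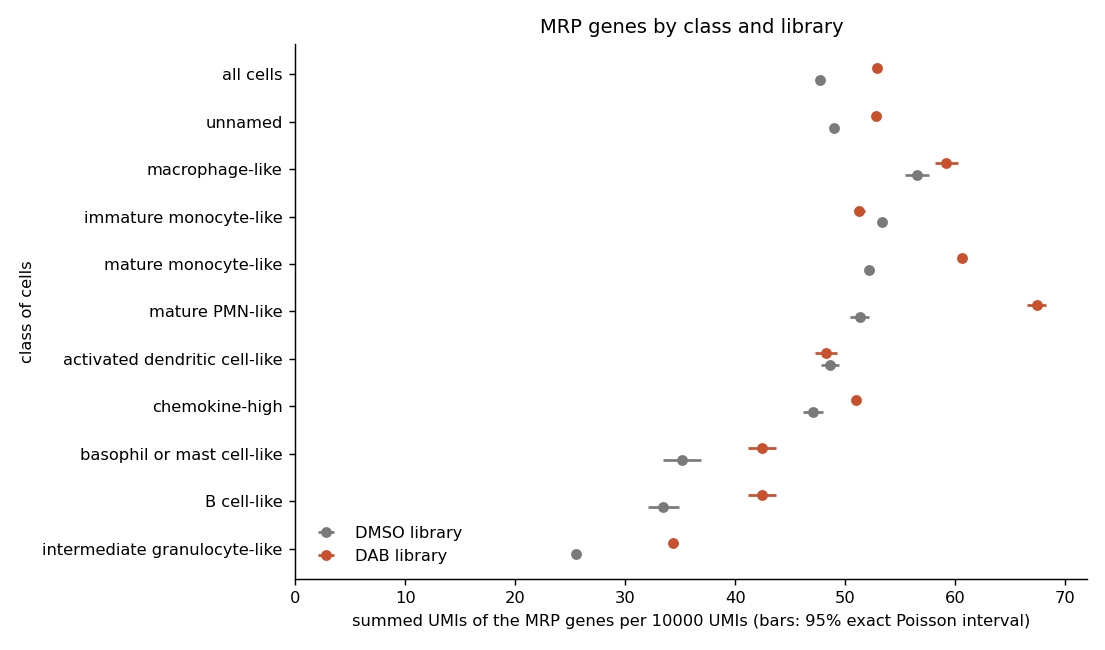
Summed UMIs of the MRP genes per 10000 UMIs (x axis, from 0) in each class of cells in the DMSO and DAB libraries, with 95% exact Poisson intervals. The DAB value is the higher in all classes but the immature monocyte-like and activated dendritic cell-like cells, and intermediate granulocyte-like cells are lowest in both libraries.

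Gene by gene, 5 classes held 200 or more cells in both libraries. In mature PMN-like cells 58 genes could be compared, with a median log2 ratio of 0.51, against 0.11 over all genes. The ratio was above 0 for 48 (82.8%), beside 59.1% of all genes. Of the 58, 29 were past the fold toward DAB, beside 20.4% of all genes, and 0 toward DMSO, beside 11.6%. The size of this shift depended on the clustering, with medians from 0.20 to 0.51 over the settings tried. Of the clusters of this class, B held 845 DMSO and 802 DAB cells, with a median of 0.47 over 51 genes, and V held 22 and 247. Cluster A, the largest, scored highest for the mature PMN markers but stayed unnamed, with 5 of 10 markers raised. It held 735 DMSO and 1155 DAB cells, with a lower median of 0.23 over 70 genes, against 0.06 over all genes. In intermediate granulocyte-like cells the median over 62 genes was 0.47, against 0.09 over all genes. The ratio was above 0 for 55 (88.7%), beside 57.4% of all genes. There 30 were past the fold toward DAB, beside 21.7% of all genes, and 1 toward DMSO, beside 13.6%. This class drew on different clusters in the libraries, with 837 DMSO and 183 DAB cells in cluster J and 624 and 444 in cluster H, where the medians were 0.36 over 35 genes and 0.30 over 50.

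In mature monocyte-like cells all 78 genes could be compared, with a median of 0.27 and 61 above 0 (78.2%), beside 50.1% of all genes. There 21 were past the fold toward DAB, beside 15.9% of all genes, and 2 toward DMSO, beside 17.6%. In immature monocyte-like cells the median over 78 genes was -0.03, with 36 above 0 (46.2%). Over all genes it was -0.07, with 43.4% above 0. There 3 were past the fold toward DAB, beside 9.92% of all genes, and 5 toward DMSO, beside 17.4%. This class gave no stable direction: the median was 0.08 at a Leiden resolution of 0.5, 0.25 with MRP genes allowed in the clustering and 0.08 with doublets kept. The proliferation list was far lower in the DAB cells of this class, with a median of -2.21 and 0 of 22 genes above 0, and its part in the MRP value was not tested.

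In chemokine-high cells the median over 75 genes was 0.07, with 47 above 0 (62.7%), beside 50.1% of all genes. There 8 were past the fold toward DAB, beside 10.8% of all genes, and 1 toward DMSO, beside 10.6%. The clusters of this class differed, with medians of 0.45 over 43 genes in cluster K and -0.0022 over 70 in cluster G. The genes that reached 200 UMIs in the PMN-like, intermediate granulocyte-like and chemokine-high classes were the more abundant ones, so these counts do not cover all 78.

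Single genes at the ends of the order over all cells mostly kept their side by class. They were picked by a ratio that includes the cells of each class, so this was in part fixed by the choice. Mrpl20 had log2 ratios of 0.94 and 1.08 in immature and mature monocyte-like cells, 1.05 in chemokine-high, 0.84 in intermediate granulocyte-like and 1.01 in mature PMN-like cells. Mrpl14 had ratios of -0.57, -0.60, -0.44, -0.34 and -0.43 in the same classes. Mrpl45 went from 78.8 to 42.5 CPM in immature monocyte-like cells (-0.89) and from 84.8 to 44.3 CPM in chemokine-high cells (-0.94), and had ratios of -0.50 in mature monocyte-like and -0.78 in intermediate granulocyte-like cells. In mature PMN-like cells the Mrpl45 ratio was -0.12 (-0.41 to 0.16). In immature monocyte-like cells, where the MRP median was near 0, Mrpl20 was thus higher and Mrpl14 and Mrpl45 lower in DAB.

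Other genes differed between classes. Mrpl52, near 0 in all cells, went from 64.4 to 118 CPM in intermediate granulocyte-like cells (log2 ratio 0.87) and from 477 to 404 CPM in immature monocyte-like cells (-0.24). Mrps36 had a ratio of 0.34 in intermediate granulocyte-like cells and of -0.35 in immature monocyte-like cells. Mrpl33, at 0.63 in mature monocyte-like cells, had a ratio of 0.09 in intermediate granulocyte-like cells.

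**Figure D3:**
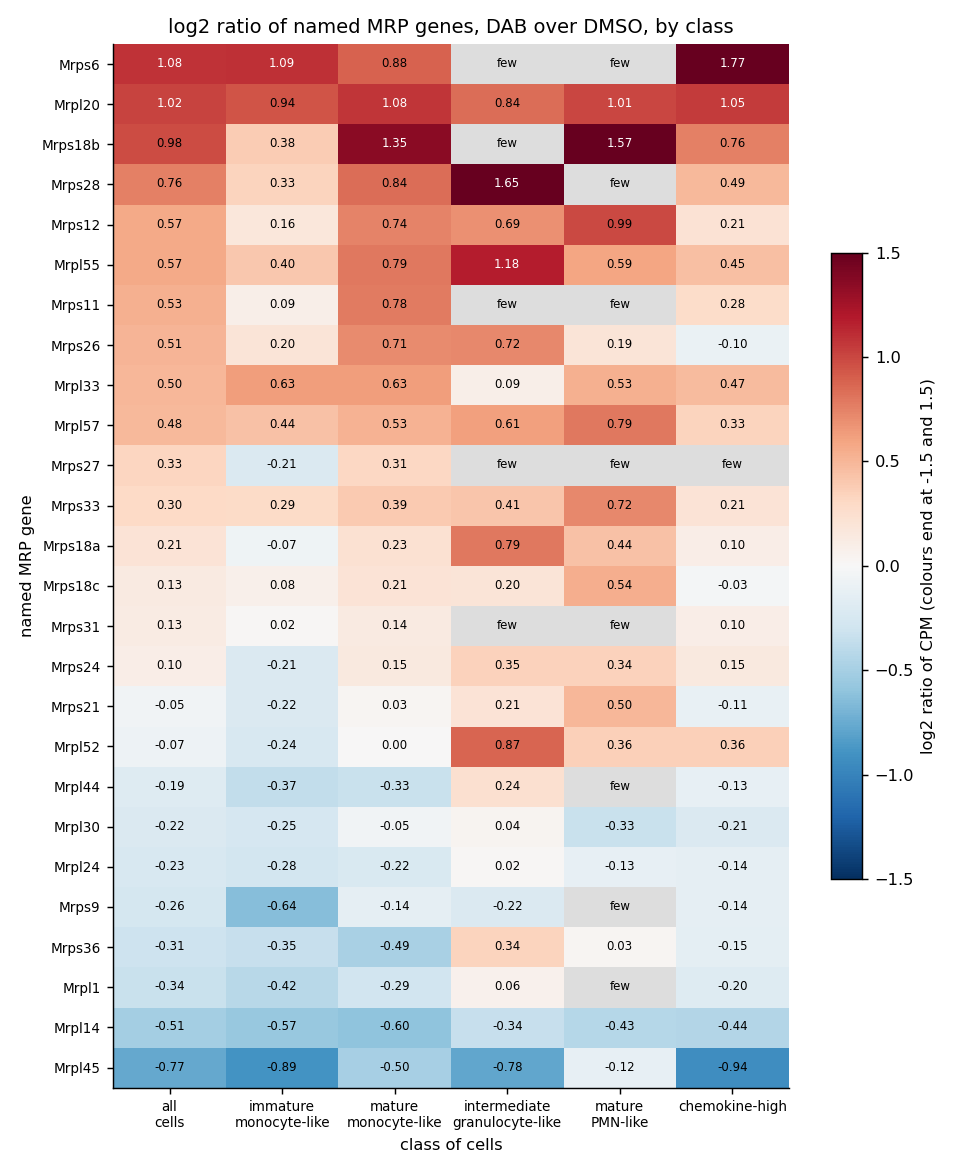
The log2 ratio of CPM, DAB over DMSO, of the 26 named MRP genes (rows) in all cells and in 5 classes of cells (columns), printed in each square and coloured from blue (lower in DAB) to red (higher in DAB), with "few" where a gene had under 200 UMIs. Mrpl20 is positive and Mrpl14 negative in every column, while Mrpl52 is -0.07 in all cells and 0.87 in intermediate granulocyte-like cells.

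Over the 19 clusters with 100 or more cells in both libraries, the summed MRP ratio was above 0 in 15, with an interval above 0 in 13 and below 0 in 1, the immature monocyte-like cluster C at -0.06. Of these clusters, the unnamed cluster Q had the lowest MRP levels, 19.3 per 10000 UMIs in DMSO and 18.3 in DAB, with the highest mitochondrial mRNA, 415 and 533 per 10000. Cluster Q was led by Gm26917, Gria3 and Maml3, with medians of 3037 UMIs per cell in DMSO and 4052 in DAB. Its cytosolic ribosomal protein genes stood at 480 and 411 per 10000 UMIs. Whether its barcodes were intact cells was not tested. Clusters in which a gene had under 200 UMIs were left out of the counts for that gene. Mrpl20 and Mrps12 were higher in DAB in 17 of 17 clusters, Mrpl55 in 11 of 11, Mrps28 in 10 of 10, Mrps18b in 9 of 9 and Mrps6 in 10 of 11. Mrpl14 was lower in DAB in 17 of 17, Mrpl45 in 16 of 16 and Mrpl1 in 6 of 6. In all, 11 genes were higher in every cluster counted and 4 were lower in every one. The same count was not made over all genes, so these numbers have no background. The genes named here were picked by their ratio over all cells, which includes the cells of these clusters. Their keeping a side was thus in part fixed by the choice.

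Levels of the MRP genes across clusters ran broadly in parallel. Across the 24 clusters with at least 100 cells, the CPM of each gene was set against the summed CPM of the other MRP genes. The Spearman correlation had a median of 0.75 over the 78 genes and exceeded 0.5 for 61 of them. Mrpl35 was most like the rest, at 0.94. The least alike were Mrps9 at 0.05, Mrps31 at 0.13, Mrpl1 at 0.27, Mrpl44 at 0.28, Mrps27 at 0.34 and Mrpl45 at 0.35. Mrps9, Mrps27 and Mrpl1 had their highest CPM in cluster Q, where the summed level was lowest among these clusters, and Mrps6 had its highest in the activated dendritic cell-like cluster U, at 137 CPM. Clusters share libraries and depth, so these values are a description. The same correlation was not computed for other genes, so the values do not show a trait particular to MRP genes.

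The cytosolic ribosomal protein genes did not shift in the same way by class. Over all cells, 55 of 81 had a ratio above 0, with a median log2 ratio of 0.07. In mature PMN-like cells the cytosolic median was -0.44, with 3 of 80 above 0, where the MRP median was 0.51. In chemokine-high cells the cytosolic median was -0.15, with 10 of 80 above 0. In intermediate granulocyte-like and mature monocyte-like cells both groups were above 0, the cytosolic medians being 0.28 and 0.20. UMIs are shares of a total of which cytosolic ribosomal protein genes take a large part, 1611 of 10000 UMIs in DMSO and 1184 in DAB in mature PMN-like cells.

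**Figure D4:**
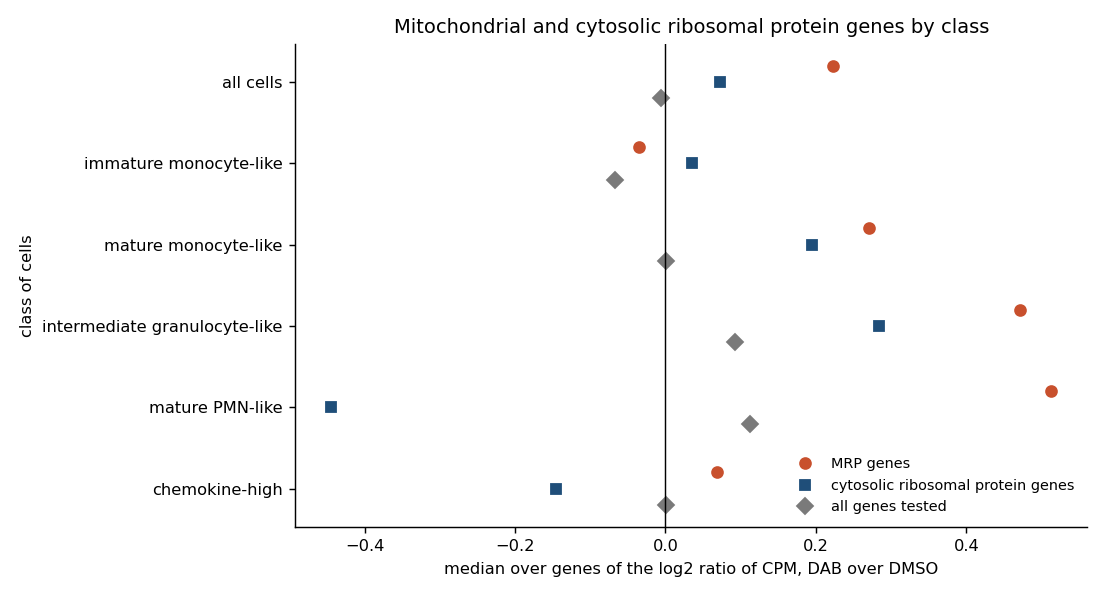
Median log2 ratio of CPM, DAB over DMSO, of the MRP genes, the cytosolic ribosomal protein genes and all genes tested in all cells and 5 classes. In mature PMN-like cells the cytosolic median is at -0.44 and the MRP median at 0.51, and in immature monocyte-like cells the MRP median is below 0.

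Depth moved with the comparison. In cells of 2000 to 5000 UMIs the summed MRP genes stood at 42.1 per 10000 UMIs in DMSO and 57.0 in DAB, and in cells of 5000 to 10000 UMIs at 39.0 and 45.4. In cells of 10000 to 20000 UMIs the order was the opposite, 48.8 (48.5 to 49.0) in DMSO and 46.9 (46.7 to 47.1) in DAB. In cells of at least 20000 UMIs it was 52.9 and 56.5. The cells of 10000 to 20000 UMIs were a different mixture in the libraries: 27.2% of the DMSO cells and 6.86% of the DAB cells were immature monocyte-like, and 43.1% and 58.5% were unnamed. Levels differed within these groups too. Unnamed cells of this range stood at 49.8 in DMSO and 48.0 in DAB, and immature monocyte-like cells at 52.8 and 48.7. Chemokine-high, intermediate granulocyte-like and mature monocyte-like cells of this range were higher in DAB. Genes past the fold followed the same order in the ranges below 20000 UMIs. For cells of at least 20000 UMIs, which held the most MRP UMIs in both libraries, no count is given here. At 2000 to 5000 UMIs, 42 of 75 MRP genes were past it toward DAB, beside 25.9% of all genes, and 0 toward DMSO, beside 8.48%. At 5000 to 10000 UMIs the counts were 20 of 78, beside 17.8%, and 1, beside 7.52%. At 10000 to 20000 UMIs they were 4 toward DAB, beside 8.68%, and 6 toward DMSO, beside 17.5%.

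Within the 5 classes, 10 of 13 combinations of class and depth with 50 or more cells in both libraries had a ratio above 0, and the other 3 were those of immature monocyte-like cells, from -0.12 to -0.03. In mature PMN-like cells the log2 ratio was 0.42 (0.38 to 0.46) at 2000 to 5000 UMIs and 0.34 (0.26 to 0.42) at 5000 to 10000. In intermediate granulocyte-like cells it was 0.74 at 2000 to 5000 UMIs, 0.35 at 5000 to 10000 and 0.14 at 10000 to 20000. In chemokine-high cells it was 0.51, 0.11 and 0.07 (0.02 to 0.11) over the same ranges. Mature monocyte-like cells had ratios of 0.19 at 10000 to 20000 UMIs and 0.22 above. The highest ratios were those of intermediate granulocyte-like and chemokine-high cells of 2000 to 5000 UMIs.

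**Figure D5:**
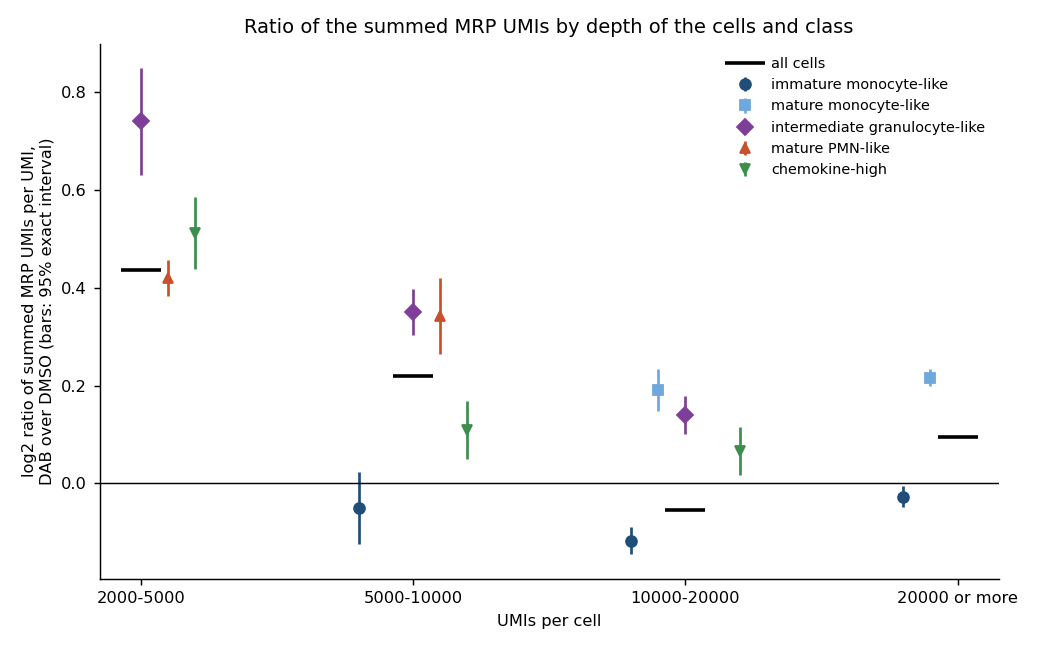
The log2 ratio DAB over DMSO of the summed MRP UMIs per UMI (y axis) by UMIs per cell (x axis), for 5 classes with 95% exact intervals and for all cells (black bars). The bar for all cells lies below 0 at 10000 to 20000 UMIs, and intermediate granulocyte-like cells have the highest value, 0.74, at 2000 to 5000 UMIs.

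Cycling cells had more MRP UMIs than other cells. Cells were called cycling when at least 3 of 1500 UMIs drawn at random from the cell were of a list of 22 proliferation genes, which is a range of a score and not a cell type. Cells under 1500 UMIs were left out, 436 in DMSO and 292 in DAB. In DMSO, 770 cycling cells stood at 53.0 per 10000 UMIs and 7826 others at 46.8. In DAB, 706 cycling cells stood at 62.0 and 9478 others at 51.3. The same order held within mature monocyte-like cells of DAB, at 70.8 and 58.8, and within immature monocyte-like cells of DMSO, at 59.0 and 52.7. It held too in intermediate granulocyte-like cells, at 32.9 and 24.5 in DMSO and 42.0 and 32.5 in DAB. The other library of the monocyte-like classes had under 50 cycling cells. Mature monocyte-like cells of DMSO had 41, at 56.6 against 51.7 in others. Immature monocyte-like cells of DAB had 7, at 62.4 against 51.0. Cycling cells were the deeper ones, with medians of 17319.5 UMIs in DMSO and 28144.5 in DAB, against 7440 and 9020.5 in other cells, and the part of depth was not tested. The proliferation list had a median log2 ratio of -0.29 over all cells, with 5 of 22 above 0, Cenpf at -0.83 and the replication gene Mcm2 at 0.90. Top2a and Ube2c, the genes of this list with most UMIs, had ratios of -0.26 and -0.20.

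The other genes of mitochondrial gene expression are given next by list, with list medians between 0.09 and 0.29 beside 0.22 for the MRP genes. Genes past the fold in these lists are to be read beside the 13.4% of all genes toward DAB and the 14.7% toward DMSO. Counts above 0 are to be read beside the 49.4% of all genes above 0. Of 5 mitoribosome proteins with other symbols, 4 were above 0, with a median of 0.14, 1 past the fold toward DAB and 0 toward DMSO. They included Chchd1 from 103 to 114 CPM (log2 ratio 0.15), Aurkaip1 (0.14), Ptcd3 from 6.74 to 11.4 CPM (0.76) and Dap3, the GTP-binding protein of the small subunit, from 49.6 to 42.5 CPM (-0.22). Of 26 assembly and ribosomal RNA factors, 21 were above 0, with a median of 0.17, 4 past the fold toward DAB and 0 toward DMSO. The RNA methyltransferase gene Mrm3 reached 3.20 CPM in DAB (log2 ratio 1.11) and Rcc1l went from 3.76 to 7.12 CPM (0.92). C1qbp had a ratio of 0.05 and Malsu1, which keeps the subunits from joining early, one of -0.36.

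Of 16 translation factors 12 were above 0, with a median of 0.10, 0 past the fold toward DAB and 0 toward DMSO. The elongation factor genes Tufm and Tsfm had ratios of 0.23 and 0.46, and the mRNA-binding pair Lrpprc and Slirp 0.49 and 0.13. Of 17 mitochondrial tRNA synthetases 12 were above 0, with a median of 0.29, 4 past the fold toward DAB and 1 toward DMSO. Mars2 went from 1.90 to 3.24 CPM (0.77), Fars2 had a ratio of -0.19, and Lars2 went from 1737 to 965 CPM (-0.85). The rows of Lars2 held 160350 UMIs in DMSO and 135191 in DAB, against 4435 and 5902 for Fars2, the next of the list, and Lars2 led the unnamed cluster L together with Gm15564, Cdk8, Cmss1, Gphn and Camk1d. Whether those UMIs came from the synthetase mRNA was not tested. Of 10 genes of mitochondrial DNA expression 8 were above 0, with a median of 0.19, 0 past the fold toward DAB and 1 toward DMSO, among them Ssbp1 at 0.46, Polrmt at 0.47 and Tfam, the mitochondrial transcription factor, at 0.18, while the polymerase subunit gene Polg2 stood at -0.93.

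The mRNAs that the mitochondrial ribosome translates had a median log2 ratio of 0.09, with 9 of 13 above 0, 4 past the fold toward DAB and 1 toward DMSO. Cytochrome b, mt-Cytb, went from 695 to 1113 CPM (0.68) and mt-Atp8 from 149 to 241 CPM (0.70), while mt-Co1 went from 4360 to 3767 CPM (-0.21) and mt-Co2 had a ratio of 0.09. Of 11 mitochondrial chaperones and proteases 8 were above 0, with a median of 0.21, 3 past the fold toward DAB and 1 toward DMSO, led by Hspa9 from 95.4 to 210.4 CPM (1.14). Hspe1 had a ratio of 0.06, and Afg3l2, a protease that matures Mrpl32, one of -0.64. For scale, the 21 genes of the amino acid response had a median of 1.74 with 19 above 0, 18 past the fold toward DAB and 1 toward DMSO. Among them Cth went from 0.238 to 32.8 CPM (7.10), Stc2 from 5.71 to 56.3 CPM (3.30) and Slc3a2 from 117 to 268 CPM (1.19), while Cebpb had a ratio of -0.32. The median of the MRP genes was thus far below that of this list.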

How the data were processed

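Single-cell 5′ RNA libraries of bone marrow-derived MDSC, 1 with DAB and 1 with DMSO, were analysed. Per the submitters' processing notes, the tools were Cell Ranger 7.0.0, Seurat 4.3.0 and R 4.1.2 with the mm10 build. The study's methods name SC5P-R2, the Cell Ranger chemistry for 5′ libraries that fixes the read and strand counted. Raw UMI counts per gene and barcode were deposited by the authors as filtered matrices.

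Barcodes above 10% mitochondrial UMIs (55 in DMSO, 89 in DAB) and simulated-neighbour doublet calls (768 and 1066) were removed, leaving 9032 of 9855 and 10476 of 11631. UMIs were summed per library and class and scaled to CPM or to 10000 UMIs. Levels have exact Poisson intervals and ratios exact binomial (Clopper-Pearson) intervals, both at 95%. With 1 library per condition no test was made. Where genes are ranked by level, the ranks are of counted UMIs only, and no correction between genes was made.

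Cells were clustered on Pearson residuals of 3000 variable genes without the MRP genes, with cycle scores and mitochondrial share regressed, 40 components, libraries aligned by mutual nearest neighbours, and Leiden at resolution 0.9. Clusters were named "-like" from 15 marker lists and otherwise stayed unnamed. For the granulocyte, PMN and chemokine lists, S100a8 or Csf3r also had to be above the other cells. Ratios by class need 200 cells of each library and levels 50. The fold rule and the counting intervals were tested on simulated Poisson sums of UMIs with set ratios. The intervals assume such counts, and the simulation held no variation between cells, mixtures or libraries. It therefore checks the calculation only. Clustering, class naming and doublet calls were not tested in this way. Tools were Python 3.11.15 (leidenalg 0.10.2, igraph 0.11.9, pandas 2.3.3, scipy 1.17.1, numpy 2.4.6, matplotlib 3.10.9) and R 4.3.3 with edgeR 4.0.16 (TMM factors only).

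The MRP genes, the gene lists and the cell markers were chosen with earlier results of these data known. Named MRP genes were the 8 with most UMIs, the 8 at either end of the log2 ratios, the 6 whose level was least like that of the others across clusters, the Mrps18 relatives and Mrps36. In each other list, the 2 genes with most UMIs and the 2 with the largest ratio in size were named. Mrps35, Mrpl35, Mrpl58 and the neighbouring genes were chosen after their values were seen. Alternatives were other scalings, filters, folds and clusterings, and, chosen after seeing the data, ranges of depth and subsets of barcodes and MRP genes.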

Additional observations from a re-analysis of the deposited data

How the results depend on the processing

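No paired analysis was possible because each condition had 1 library. The depth ranges and subsets of genes were chosen after seeing the data. Each cluster was also given the same weight in both libraries, its number of cells. The median log2 ratio over all cells was then 0.21, the summed ratio 0.149 and the MRP genes past the fold 10 of 78. The reported median of 0.22 weights by UMIs, so the unit of weight and the mixture changed together. The mean of shares over cells, which weights by cells, gave a median of 0.34 and a summed ratio of 0.24. The part of the mixture was not tested. The median became 0.60 in cells of 2000 to 5000 UMIs, 0.31 at 5000 to 10000 and -0.053 at 10000 to 20000. Neither this median nor the count past the fold is given for cells of at least 20000 UMIs. The 11 MRP genes past the fold (9 toward DAB, 2 toward DMSO) became 19 (18 and 1) with the mean over cells, 42 (37 and 5) at a log2 fold of 0.25, 2 at a fold of 1, 42 (42 and 0), 21 (20 and 1) and 10 (4 and 6) in cells of 2000 to 5000, 5000 to 10000 and 10000 to 20000 UMIs, and 3 of 36 without genes that overlap another. The shares of all genes stand with the counts above, except for equal cluster weights and for genes without an overlap, where none was computed. The summed log2 ratio of 0.15 was 0.155 with median-of-ratios scaling, 0.20 with TMM, 0.139 without barcode filters, 0.14 without doublet removal, 0.24 as a mean over cells, 0.13 without overlapping genes and 0.19 without the 8 genes with most UMIs. By depth it was 0.44, 0.22, -0.056 and 0.094, from the shallowest range to the deepest. TMM moved every ratio up by 0.05.

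The class medians depended on the clustering. In immature monocyte-like cells the median of -0.03 was 0.077 at a Leiden resolution of 0.5, 0.25 with MRP genes allowed and 0.079 with doublets kept. In mature PMN-like cells 0.51 was 0.32 at 0.5, 0.25 at 1.5, 0.27 without alignment, 0.32 without genes that differed between the libraries and 0.20 with doublets kept. The other 3 classes moved by less than their spread over genes. The reported class levels moved too, and the order of the libraries turned in immature monocyte-like and macrophage-like cells, as given above. The highest over the lowest class in DMSO, 2.21, was 1.72 at 0.5, 2.01 without alignment, 2.06 without differing genes and 2.09 with doublets kept. In DAB, 1.96 was 1.51 at 0.5, 1.78 at 1.5, 2.04 with MRP genes allowed, 1.70 without alignment, 1.83 without differing genes and 1.82 with doublets kept. Immature monocyte-like cells gave no median at 1.5 or without alignment, and macrophage-like cells no level without differing genes. The causes were not tested.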
